A study of Mus musculus with 10 samples.

Results

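The 32 genes described here serve cholesterol synthesis, transport and turnover in the mouse cerebellum, and they were chosen by name for their known roles. Their Ensembl identifiers were found through the gene symbols of the GENCODE M21 annotation among the 53447 genes listed in each library. All 32 passed the filter on low values and were among the 17168 genes tested. They comprise 18 enzymes of the synthesis route, 6 regulators, 6 transport genes and 2 genes of turnover and storage. Total RNA of whole cerebella at postnatal day 21 (P21) was sequenced from 5 WT mice, labelled Control, and 5 *Dscam* del17/del17 mice, labelled DscamKO, with 1 library per mouse. Both groups are labelled BALB/c, and the methods describe a *Dscam* del17 stock crossed to BALB/c mice. The del17 allele is a spontaneous loss-of-function deletion in exon 17 that is present in every tissue of the homozygotes, so the lesion is not limited to the cerebellum. The methods state that littermates served as controls and that both sexes were included, but neither sex nor litter is given for a single mouse.

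Cholesterol in the brain is made locally, because lipoproteins of the blood do not cross the blood-brain barrier. Acetyl-CoA is turned through mevalonate into isoprenoid units that condense to squalene, which is then closed to lanosterol and trimmed to cholesterol. SREBP-2, held in the endoplasmic reticulum by SCAP and the INSIG proteins while sterols are plentiful, drives the genes of this route when sterols run low, whereas LXR receptors respond to oxysterols by raising export. Myelinating oligodendrocytes use much of the brain's cholesterol, astrocytes hand it to neurons on APOE particles, and neurons dispose of it as 24S-hydroxycholesterol.

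Promoter sequences of 4 synthesis genes are shown because they carry, in differing numbers, the short motifs known from SREBP-driven genes, and because the results below turn on these genes. *Hmgcs1* had the highest mean level of the enzymes, *Mvd* and *Dhcr7* the smallest p-values, and *Cyp51* a strongly deviating WT library. Each stretch holds the 150 bases before the most upstream start of the gene in RefSeq or GENCODE, 5′ to 3′ on the coding strand, and the sequences are credited to RefSeq on GRCm38.p6. They lie at chr13:119690201-119690350 on the plus strand for *Hmgcs1*, at chr8:122443423-122443572 on the minus strand for *Mvd*, at chr5:4104747-4104896 on the minus strand for *Cyp51* and at chr7:143822995-143823144 on the plus strand for *Dhcr7*. Capitals mark matches, on either strand, to TCACNCCAC (a sterol regulatory element), CCAAT (the NF-Y motif) and GGGCGG (the Sp1 motif).
*Hmgcs1*: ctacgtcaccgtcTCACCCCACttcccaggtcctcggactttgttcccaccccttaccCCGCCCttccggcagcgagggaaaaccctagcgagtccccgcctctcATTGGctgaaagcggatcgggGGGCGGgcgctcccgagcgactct
*Mvd*: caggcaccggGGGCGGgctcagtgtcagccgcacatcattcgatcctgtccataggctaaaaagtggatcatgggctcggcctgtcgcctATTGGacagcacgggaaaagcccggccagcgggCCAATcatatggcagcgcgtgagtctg
*Cyp51*: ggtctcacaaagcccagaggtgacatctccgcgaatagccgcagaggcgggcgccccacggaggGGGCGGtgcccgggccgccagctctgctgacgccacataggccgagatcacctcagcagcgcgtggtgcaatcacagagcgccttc
*Dhcr7*: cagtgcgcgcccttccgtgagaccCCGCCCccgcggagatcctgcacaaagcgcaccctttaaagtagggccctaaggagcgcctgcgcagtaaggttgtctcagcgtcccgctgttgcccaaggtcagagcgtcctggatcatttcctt
The *Hmgcs1* stretch holds 1 match to TCACNCCAC, 1 to CCAAT and 2 to GGGCGG. That of *Mvd* holds 2 matches to CCAAT and 1 to GGGCGG, and those of *Cyp51* and *Dhcr7* hold 1 match to GGGCGG each.

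Over the longer RefSeq windows, from 250 bases before to 50 after each listed start, 26 of the 32 genes had at least 1 entry, with 36 windows in all. *Fdps*, *Fdft1*, *Sqle*, *Stard4*, *Abcg1* and *Npc1* had none. CCAAT was found in 14 of the 15 enzyme genes with a window (93.3%), against 41.1% of all 27025 genes in the table. GGGCGG was likewise found in 14 of the 15 (93.3%), against 38.2% of all genes. The genes of the table were not matched to the members in expression or base content, so these contrasts are not specific to SREBP. Among the 11 other members with a window, 7 held CCAAT (63.6%) and 9 held GGGCGG (81.8%). TCACNCCAC was found in *Hmgcs1* alone, 1 of 15 enzyme genes (6.67%), against 1.44% of all genes. The LXR motif known as DR4, searched as 2 exact copies of AGGTCA with 4 bases between them, was found in 0 of the 26 members. It was found in 0.0148% of all genes, so its absence among 26 genes says little about them. Genes with several listed starts were counted once, so they had more sequence in which to match, and matches to different motifs were counted separately even where they share bases at their ends. A match describes the letters only, not binding of a factor. Only these exact strings were searched, so a gene without a match may still hold a variant of the element.

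The deposited values are TPM, a measure of transcript abundance that is scaled by length and library and keep no read number, so the depth is unknown. WT replicate 5 stood apart from the other libraries. Its listed TPM summed to 684771, against 757307 to 838532 in the other WT and 775148 to 805869 in the mutant libraries, and 15623 genes reached 0.5 TPM in it, against 17101 to 17763 elsewhere. Transcripts of the mitochondrial genome made up 15206 TPM of it, where the range elsewhere was 23124 to 44973 TPM. The results are therefore given with and without this library. *Dscam* ranged between 6.29 and 9.05 TPM in WT and between 3.05 and 5.42 TPM in mutant cerebella, without overlap. Cerebellar markers were present throughout, with *Pcp2* of Purkinje cells at 1380 to 2605 TPM and *Gabra6* of granule cells at 238 to 634.5 TPM.

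None of the 32 genes passed the threshold of 0.05 on the adjusted p (limma, Benjamini-Hochberg over the 17168 genes), and neither did any other gene (0%). At an unadjusted p under 0.05 stood 2 of the 32, *Dhcr7* and *Mvd*, both lower in the mutant, where 5.55% of all genes tested reached this level and 3.26% reached it as lower. A count of 2 in 32 is close to that background. Only *Mvd* had groups that did not overlap, against 1.22% of all genes, or 0.798% when only lower values in the mutant are counted. The log2 fold change, always mutant minus WT on log2(TPM + 0.1), was above 0 for 15 members and below 0 for 17. Their median was -0.05, beside 0.05 over all genes tested, of which 44% were below 0. Without WT replicate 5, the split became 4 above and 28 below, with a median of -0.15 beside -0.04 over all genes, of which 56% were below 0. None of the 17168 genes passed the adjusted threshold in that setting either (0%). At an unadjusted p under 0.05 there were then 3 members, all lower and with *Sqle* added, against 5.74% of all genes, or 4.05% when only lower values are counted. *Mvd* remained the only member without overlap, against 2.1% of all genes, or 1.56% for lower values.

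The enzymes and the other members were then described separately, with no test of the difference between them. Of the 18 enzymes, 9 were above 0 and 9 below with all libraries (median 0.0003), and 1 was above and 17 below without that library (median -0.17). Of the 14 other members, 6 were above and 8 below, and 3 above and 11 below without it, with medians of -0.07 in both settings. The summed TPM of the 18 enzymes was 678, 604, 597 and 673 in WT replicates 1 to 4, 348 in WT replicate 5, and 557, 589, 562, 507 and 540.0 in the 5 mutants. WT replicate 5 lay far below every other library. The remaining WT libraries averaged 638 ± 43.2 (SD, n = 4) and the mutant libraries 551 ± 30.2 (SD, n = 5). In TPM as deposited, these 4 WT sums lay above every mutant sum. The gap was narrow, between 597 in WT replicate 3 and 589 in mutant replicate 2. The order of the sums depends on the scaling. Median-of-ratios scaling divides each library by its median ratio to the gene means. That factor was 1.06 for WT replicate 2 and 1.01 for mutant replicate 2. Dividing by it would place the sum of WT replicate 2 below that of mutant replicate 2. No test was made on this sum, since the genes were chosen with earlier results known.

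**Figure D1:**
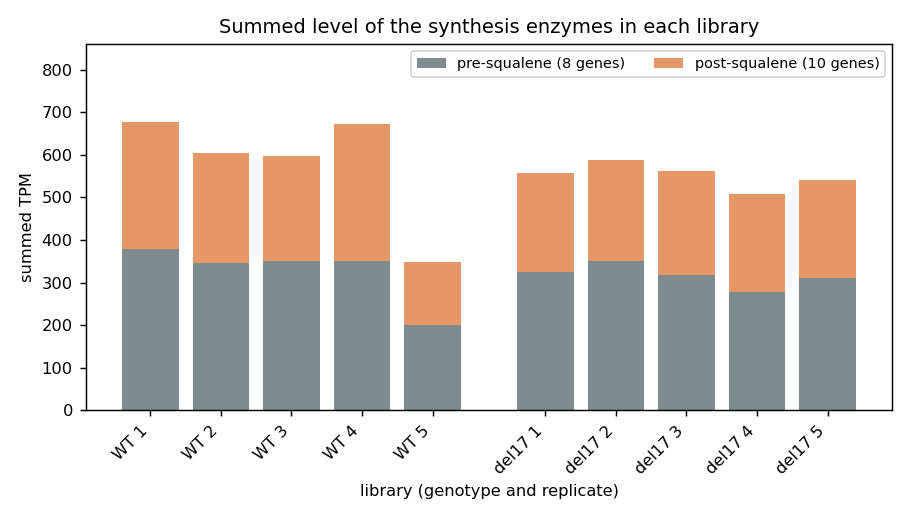
Summed TPM of the 8 pre-squalene and 10 post-squalene enzymes (y axis) in each of the 10 libraries (x axis), as stacked bars from 0. WT replicate 5 reached 348 TPM, the other WT libraries 597 to 678 and the mutant libraries 507 to 589.

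**Figure D2:**
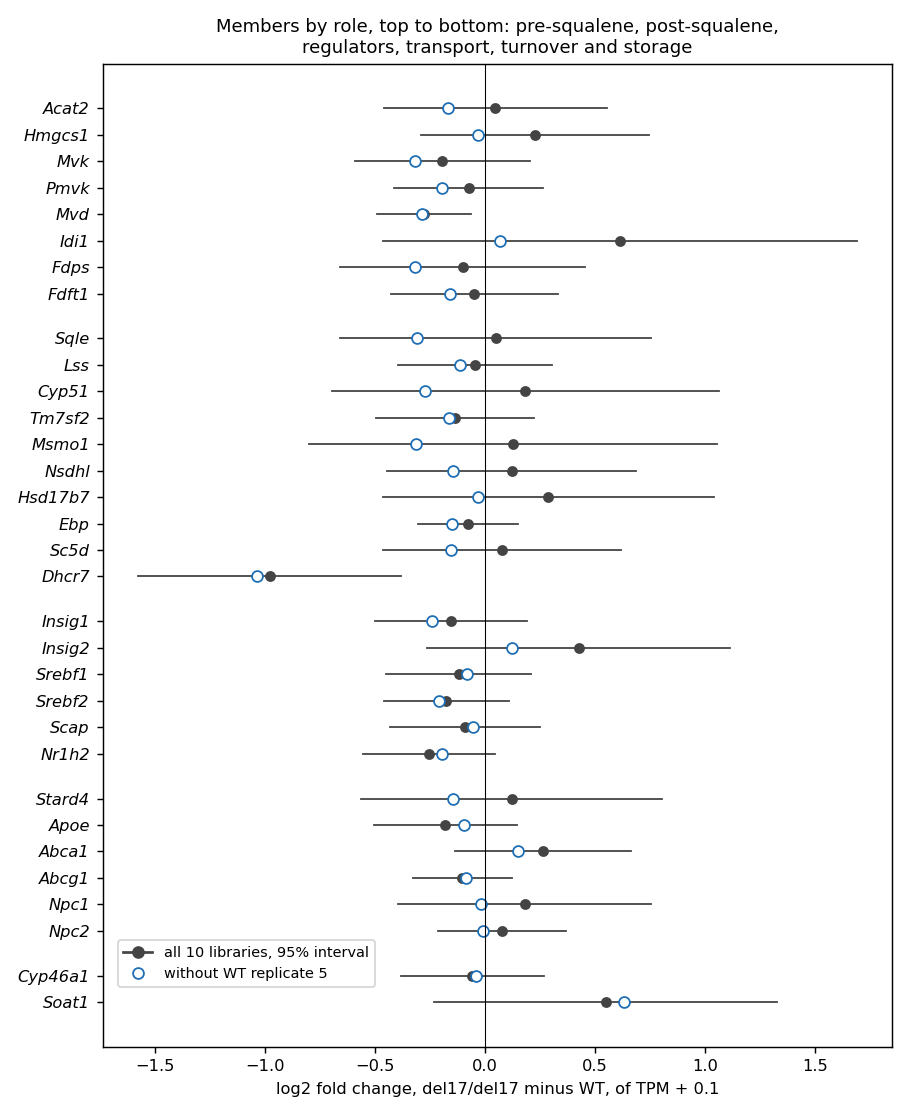
Log2 fold change of each of the 32 genes (x axis, mutant minus WT), grouped by role. Filled points with lines are estimates from all 10 libraries with 95% intervals from limma, and open points are estimates without WT replicate 5. The intervals of *Mvd* and *Dhcr7* exclude 0 and the other 30 include it. Open points lie left of filled points for all 18 enzymes.

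*Dhcr7* had the largest difference among the 32 genes. It encodes 7-dehydrocholesterol reductase, which performs the last step of one branch of the route and is mutated in Smith-Lemli-Opitz syndrome. It lies at chr7:143823145-143848410 on the plus strand. Its level was 19.8, 19.0, 12.01, 34.1 and 16.1 TPM in WT replicates 1 to 5, and 8.80, 9.27, 12.7, 11.7 and 6.68 TPM in the mutants. The groups touched at a single point, where mutant replicate 3 lay above WT replicate 3, and WT replicate 4 was far above the rest. The means were 20.2 ± 8.34 TPM in WT and 9.84 ± 2.42 TPM in mutant cerebella (SD, n = 5 each), a log2 fold change of -0.98 (SE 0.27, 95% interval -1.58 to -0.38). The unadjusted p was 0.0039 and the adjusted p 0.779 by limma, and an exact two-sided permutation test over the 10 mice gave p = 0.0159. The value was -1.04 without WT replicate 5 (exact permutation p = 0.0317, where the smallest possible is 0.0159). In whole tissue, fewer cells of a type and less RNA per cell cannot be told apart, here and for every gene below.

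*Mvd* encodes mevalonate diphosphate decarboxylase, which yields isopentenyl diphosphate, the first isoprenoid unit. It lies at chr8:122433601-122443422 on the minus strand. Its level was 44.0, 42.2, 47.7, 44.6 and 43.5 TPM in WT and 38.8, 36.0, 32.3, 37.5 and 38.8 TPM in mutant libraries. Every mutant lay below every WT mouse, WT replicate 5 lay within the range of the other WT mice, and the spread within each genotype was small. The means were 44.4 ± 2.04 and 36.7 ± 2.73 TPM (SD, n = 5 each), with a log2 fold change of -0.28 (SE 0.097, 95% interval -0.49 to -0.06). Its limma p was 0.0151 unadjusted and 0.779 adjusted, and the exact two-sided permutation test gave 0.0079, the smallest p that 5 against 5 mice allow. Groups without overlap always give that p, so it adds nothing to the lack of overlap. After a correction for transcript GC content, described below, the log2 fold change was -0.15 (unadjusted p = 0.126).

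The other 7 pre-squalene enzymes had 95% intervals that include 0. *Hmgcs1*, which makes HMG-CoA, was at 95.4, 91.2, 73.2, 95.3 and 36.3 TPM in WT and 77.1, 99.0, 87.8, 85.3 and 84.5 TPM in mutant libraries. The mutants lay within the range of the first 4 WT libraries but for replicate 2, and WT replicate 5 was the only low value. The log2 fold change was 0.23 (95% interval -0.29 to 0.74) with all libraries and -0.03 without WT replicate 5. *Idi1*, the isomerase of isopentenyl diphosphate, had 21.2, 18.8, 11.4, 14.8 and 2.34 TPM in WT and 17.4, 17.8, 19.3, 17.1 and 13.5 TPM in mutant libraries. Its log2 fold change of 0.61 (95% interval -0.46 to 1.69) was the highest of the 32 and became 0.07 without WT replicate 5. *Fdps*, the farnesyl diphosphate synthase, had 79.7, 74.7, 76.9, 58.7 and 33.9 TPM in WT and 67.7, 77.4, 65.7, 40.4 and 46.0 TPM in mutant libraries, with overlapping groups and a log2 fold change of -0.10 that became -0.32 without that library.

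The remaining pre-squalene enzymes ranged from 11.6 to 56.1 TPM. The thiolase *Acat2* had a log2 fold change of 0.05 (-0.17 without WT replicate 5), and 45.9% of the 50-base words of its transcript also occur in *Acat3*. Mevalonate kinase, *Mvk*, had 27.2 ± 6.57 TPM in WT and 23.4 ± 3.20 TPM in mutant cerebella, with a log2 fold change of -0.19 (-0.32 without WT replicate 5). Phosphomevalonate kinase, *Pmvk*, had -0.07 and -0.20 in these settings. *Fdft1*, the squalene synthase that commits farnesyl units to sterols, had -0.05 and -0.16. Some of these transcripts share 50-base words with other genes, 21.3% for *Idi1* with *Gm13502*, 11.7% for *Fdps* with *Gm43738* and 10.9% for *Fdft1* with *Gm6781*, and reads of such stretches cannot be assigned with certainty.

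**Figure D3:**
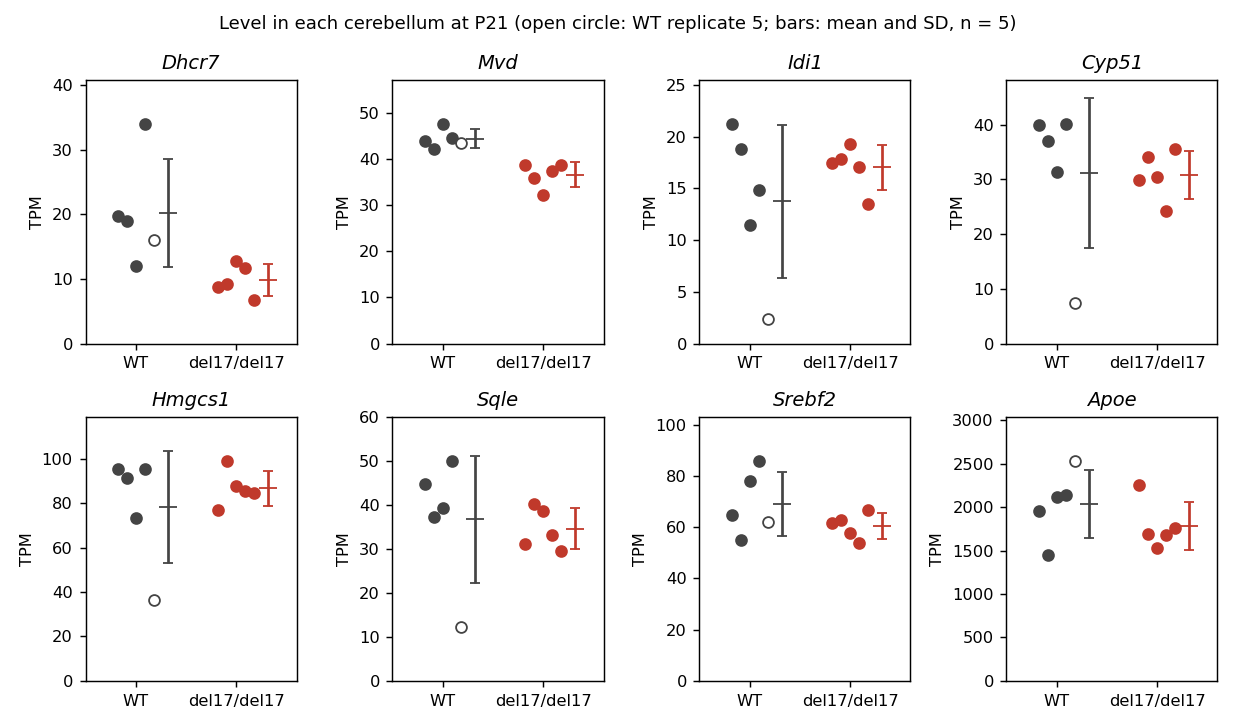
TPM (y axis, from 0) of 8 of the 32 genes in each WT and del17/del17 cerebellum (x axis), with the mean and SD of 5 mice beside the points. The open circle is WT replicate 5. *Dhcr7* and *Mvd* are lower in the mutants, while for *Idi1*, *Cyp51*, *Hmgcs1* and *Sqle* the open circle lies far below all other points.

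Of the 10 post-squalene enzymes, 6 had a log2 fold change above 0 with all libraries and 0 without WT replicate 5 (medians 0.06 and -0.16). *Ebp*, the sterol isomerase of the route, was even across mice, at 51.0, 51.2, 47.4, 46.1 and 38.3 TPM in WT and 44.1, 43.6, 43.4, 43.3 and 46.2 TPM in mutant libraries. The groups overlapped in mutant replicate 5 and WT replicate 5, and the log2 fold change was -0.08 (95% interval -0.31 to 0.15). *Tm7sf2*, a sterol reductase, had 36.6, 28.8, 41.5, 49.9 and 34.8 TPM in WT and 42.0, 33.7, 31.8, 38.3 and 27.5 TPM in mutant libraries, with a log2 fold change of -0.14 (95% interval -0.50 to 0.22). *Hsd17b7*, a keto reductase, had 7.67, 9.79, 5.41, 6.88 and 2.36 TPM in WT and 7.002, 9.10, 6.67, 5.71 and 7.58 TPM in mutant libraries. The mutant values of *Hsd17b7* lay inside the WT range, and its log2 fold change of 0.29 became -0.03 without WT replicate 5.

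*Sqle*, *Cyp51* and *Msmo1* are described after their values were seen, because after *Idi1* they had the lowest values in WT replicate 5 relative to the other WT libraries. *Sqle*, the squalene epoxidase that is a main control point of the route, was at 44.9, 37.2, 39.4, 50.1 and 12.3 TPM in WT and 31.3, 40.3, 38.8, 33.3 and 29.6 TPM in mutant libraries. Its log2 fold change was 0.05 with all libraries (unadjusted limma p = 0.882) and -0.31 without WT replicate 5 (95% interval -0.60 to -0.01, unadjusted p = 0.0425, exact permutation p = 0.0794). The groups overlapped in both settings. *Cyp51*, the lanosterol demethylase, was at 40.0, 37.0, 31.4, 40.2 and 7.50 TPM in WT and 29.8, 34.1, 30.4, 24.3 and 35.6 TPM in mutant libraries, with log2 fold changes of 0.18 and -0.27. *Msmo1*, the methyl sterol oxidase, was at 30.6, 18.2, 19.1, 33.2 and 5.21 TPM in WT and 15.2, 16.6, 25.5, 23.4 and 19.2 TPM in mutant libraries, with 0.13 and -0.31. In each of the 3 genes, the lowest of the 10 values was that of WT replicate 5.

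The last 3 enzymes also had lower values without WT replicate 5. *Nsdhl*, the sterol dehydrogenase that works beside *Msmo1*, had 15.6 ± 5.29 TPM in WT and 16.0 ± 0.539 TPM in mutant cerebella (log2 fold change 0.12, and -0.15 without WT replicate 5). *Sc5d*, the desaturase that precedes *Dhcr7*, had 20.0 ± 7.22 and 19.8 ± 1.02 TPM (0.08, and -0.16). Lanosterol synthase, *Lss*, had 18.4 ± 2.01 and 17.9 ± 3.11 TPM (-0.05, and -0.11).

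Among the 6 regulators, *Insig2* was above 0 and the other 5 below, both with and without WT replicate 5 (medians -0.14 in each). *Nr1h2*, which encodes LXR beta, had 70.1, 57.9, 67.2, 91.2 and 86.6 TPM in WT and 60.7, 51.9, 67.4, 63.5 and 65.9 TPM in mutant libraries. The 3 highest WT mice lay above all mutants and the other WT mice among them, and the log2 fold change was -0.25 (95% interval -0.55 to 0.04, unadjusted limma p = 0.0886, exact permutation p = 0.127). *Srebf2*, the gene of SREBP-2, had 64.6, 54.8, 77.8, 85.8 and 62.2 TPM in WT and 61.6, 62.6, 57.6, 53.8 and 66.8 TPM in mutant libraries, also overlapping, with -0.18 (95% interval -0.46 to 0.11). *Insig1*, itself a target of SREBP, had 35.1 ± 7.04 and 31.3 ± 4.49 TPM with a log2 fold change of -0.15. *Insig2* had 25.4 ± 10.04 and 32.1 ± 8.45 TPM, and its 0.43 became 0.12 without WT replicate 5, where it was at 10.03 TPM. *Srebf1*, which favours fatty acid genes, had -0.12 and the SREBP escort *Scap* -0.09, both with groups that overlapped.

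The 6 transport genes included the most abundant member. *Apoe*, which encodes the main lipoprotein of the brain and is made mostly by astrocytes, was at 1954, 1451, 2113, 2134 and 2530 TPM in WT and 2255, 1688, 1534, 1684 and 1760 TPM in mutant libraries. The highest value was that of WT replicate 5 and the lowest that of WT replicate 2, with the mutants between them. The log2 fold change was -0.18 (95% interval -0.51 to 0.14) and -0.10 without WT replicate 5. *Abca1*, the exporter that loads lipid on APOE, had 10.2, 11.2, 9.62, 9.58 and 6.83 TPM in WT and 13.9, 9.89, 11.5, 10.9 and 10.6 TPM in mutant libraries, with overlap and a log2 fold change of 0.26 (95% interval -0.14 to 0.66, exact permutation p = 0.0873). *Abcg1*, another exporter, had 45.2, 51.3, 43.0, 43.7 and 48.8 TPM in WT and 47.8, 47.0, 39.0, 40.9 and 41.6 TPM in mutant libraries, with -0.10. The 2 exporters, both classic LXR targets, thus had values on opposite sides of 0, neither past the threshold.

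*Npc1* and *Npc2*, which together release cholesterol from lysosomes, had log2 fold changes of 0.18 and 0.08, and -0.02 and -0.01 without WT replicate 5. Their levels were 17.3 ± 5.02 and 19.4 ± 4.72 TPM for *Npc1* and 37.4 ± 6.70 and 39.1 ± 2.70 TPM for *Npc2*, in WT and mutant cerebella. *Npc1* in mutant replicate 5 was at 11.2 TPM, against 19.9 to 22.5 TPM in the other mutants. *Stard4*, a carrier of cholesterol in the cytosol, had 11.9 ± 4.08 and 12.5 ± 3.65 TPM, with 0.12 and -0.15.

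*Cyp46a1*, the neuronal 24-hydroxylase that prepares cholesterol for removal from the brain, was at 46.2, 40.1, 53.8, 50.5 and 49.8 TPM in WT and 35.8, 39.6, 58.4, 46.7 and 53.5 TPM in mutant libraries. The mutants spanned the whole WT range, and the log2 fold change was -0.06 (95% interval -0.38 to 0.27). *Soat1*, which esterifies cholesterol for storage, was the least abundant member, at 5.00, 2.53, 1.55, 2.65 and 3.62 TPM in WT and 7.20, 3.60, 2.98, 4.11 and 4.23 TPM in mutant libraries. Its log2 fold change of 0.55 (95% interval -0.23 to 1.33) was 0.63 without WT replicate 5, with overlapping groups in both settings.

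Apart from *Apoe*, 29 members had a mean of 10.4 to 82.5 TPM, and *Hsd17b7* and *Soat1* lay below at 6.82 and 3.75 TPM. Without WT replicate 5, the highest of the 9 libraries was less than 2 times the lowest for 26 of the 32 genes. The exceptions were *Dhcr7*, *Msmo1*, *Insig2*, *Stard4*, *Npc1* and *Soat1*. WT replicate 5 held the lowest of the 10 values for 18 members, 13 of them enzymes, where 40.9% of all genes tested had their lowest value in it. Set against the median of the other WT libraries on the log2 scale, its values had a median of -0.57 over the members, -1.12 over the enzymes and -0.43 over all genes tested. In 13 members, 10 of them enzymes, the level in WT replicate 5 was at most 0.5 times that median, as in 30.0% of all genes. *Idi1* was lowest at -2.78, followed by *Cyp51* at -2.34 and *Msmo1* at -2.19. Above 0 were 7 members, with *Soat1* at 0.47, *Nr1h2* at 0.34 and *Apoe* at 0.32 the highest.

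The deviation of WT replicate 5 varied with the GC content of the transcripts, which ranged from 41.9% for *Idi1* to 60.6% for *Nr1h2*. Over the 32 genes it had a Spearman correlation of 0.73 and a Pearson correlation of 0.71 with GC content, and over 17125 genes with a known transcript a Spearman correlation of 0.46. These are descriptions, since the points share 1 library and its scaling. The 16 members under 50% GC had a median of -1.31 and the 16 others -0.18, where all genes tested had -0.86 and -0.08 by the same division. The log2 fold changes of the members ran against GC content as well, with a Spearman correlation of -0.83 with all libraries and -0.31 without WT replicate 5. Over all genes with a known transcript, the same correlations were -0.43 and -0.24, so the trend is not particular to the members. Each library was therefore corrected by removing its own trend of deviation against GC content, a setting chosen after seeing the data. With it, 5 of the 18 enzymes were above 0 and 13 below (median -0.06), and without WT replicate 5 as well, 0 were above and 18 below (median -0.15, beside -0.01 over all genes). The 14 other members were at 8 above and 6 below in both of these settings (medians 0.01), beside 3 above and 11 below without WT replicate 5 alone. Over all genes, 49.6% were below 0 with the correction and 50.9% with both changes. *Dhcr7* was then at -0.95 with all libraries and -0.96 without WT replicate 5, and it was the 1 member at an unadjusted p under 0.05 in each, against 6.53% and 6.44% of all genes. No member passed the adjusted threshold in either.

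**Figure D4:**
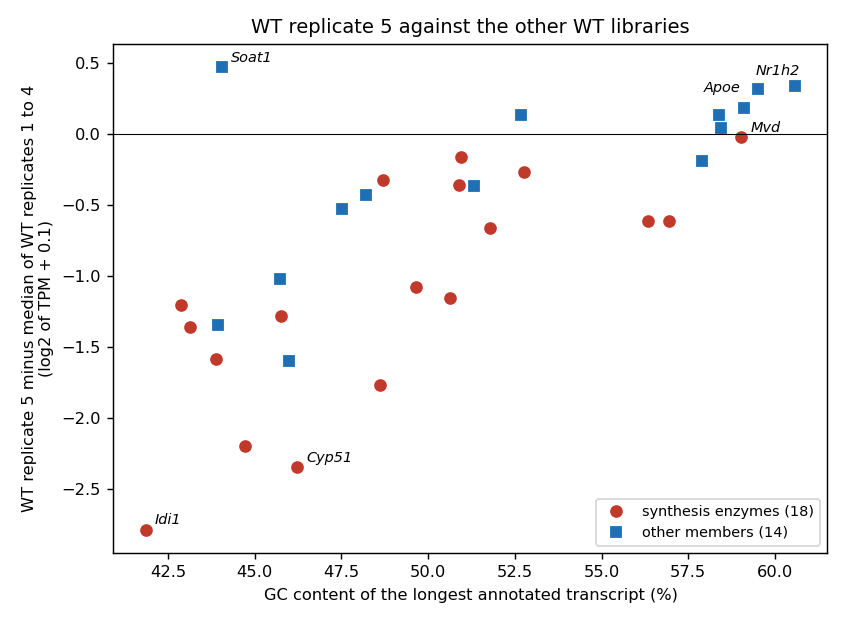
GC content of the longest annotated transcript (x axis, %) against the level in WT replicate 5 minus the median of the other WT libraries (y axis, log2 of TPM + 0.1) for the 18 enzymes (circles) and the 14 other members (squares). All genes under 50% GC except *Soat1* (0.47) lie below 0, with *Idi1* lowest at -2.78. Those of higher GC content lie on both sides of 0, where *Mvk* and *Pmvk*, at 56.3% and 56.9%, lie at -0.61.

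Marker lists of the cell types in and around the cerebellum had the following values beside these genes, with log2 fold changes summarised as medians. Of the 14 markers of myelinating oligodendrocytes, 12 lay above 0 (median 0.35), with 4 at an unadjusted p under 0.05, against 5.55% of all genes. Without WT replicate 5, 10 of these markers lay above 0 (median 0.18), again with 4, against 5.74% of all genes. Their summed level ranged between 5935 and 8631 TPM in WT, or between 7686 and 8631 TPM without replicate 5, and between 7568 and 8931 TPM in mutant libraries, with no marker at 0 in any library. *Mobp*, a myelin protein gene, had 676.5 ± 111 and 945 ± 45.9 TPM. Without WT replicate 5, this list had a median above 0 while the enzymes had one of -0.17.

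Several other lists had medians below 0 together with the enzymes in that setting, where 56% of all genes were below 0 (44% with all libraries). Endothelial markers were above 0 in 3 of 7 with all libraries (median -0.03) and in 0 of 7 without WT replicate 5 (median -0.20), where their sums were between 107 and 135 TPM in WT and between 93.4 and 106 TPM in mutant libraries. Choroid plexus markers were above 0 in 4 of 6 (median 0.15) and then in 0 of 6 (median -0.20). Without WT replicate 5, their sums were between 2588 and 3415 TPM in WT and between 1938 and 3412 TPM in mutant libraries. Meningeal fibroblast markers were above 0 in 2 of 6 (median -0.21) and then in 0 of 6 (median -0.29). Without WT replicate 5, their sums were between 72.7 and 108 TPM in WT and between 59.8 and 71.0 TPM in mutant libraries. WT replicate 5 itself had sums of 74.1 TPM (endothelial), 1800 TPM (choroid plexus) and 50.2 TPM (meningeal), each below every mutant sum. With that library, the WT and mutant ranges overlap in each of these lists. Granule cell markers were above 0 in 2 of 10 in both settings (medians -0.12 and -0.19). Of them, 3 and 4 were lower at an unadjusted p under 0.05, against 3.26% and 4.05% of all genes. With all libraries, the granule cell sums were between 2807 and 3490 TPM (WT) and between 2749 and 2962 TPM (mutant). Markers of Bergmann glia and astrocytes were above 0 in 7 of 12 (median 0.04) and then in 4 of 12 (median -0.05). Their sums with all libraries were between 2576 and 3359 TPM (WT) and between 2876 and 3068 TPM (mutant).

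Purkinje cell markers were above 0 in 9 of 10 (median 0.21) and in 8 of 10 without WT replicate 5 (median 0.10). Their sums with all libraries were between 4940 and 5651 TPM (WT) and between 4875 and 5994 TPM (mutant). Oligodendrocyte precursor markers were above 0 in 6 of 8 and then in 4 of 8, and microglial markers in 4 of 9 and then in 6 of 9. Brainstem and midbrain markers had the highest median of the lists, with 5 of 10 abundant enough to test. All 5 lay above 0 (median 1.07, and 0.89 without WT replicate 5), with 3 at an unadjusted p under 0.05, against 5.55% of all genes. Their sums were between 7.41 and 20.5 TPM (WT) and between 13.2 and 32.7 TPM (mutant). *Dbh*, which makes noradrenaline, lay between 0 and 0.458 TPM (WT) and between 0.685 and 1.45 TPM (mutant), while *Hoxb5* was listed at 0 in all libraries. Only the mutant libraries brought *Dbh* past the filter of 0.5 TPM in 5 libraries. Its place among the tested markers, its value above 0 and its lack of overlap follow from that and are no separate result. The counts and medians of this list include *Dbh* and were not computed without it, so no result is drawn from them. No marker passed the adjusted threshold, and the part of cell composition or dissection in the values of the 32 genes was not tested.

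Genes of related pathways were compared in the same way. Of 12 genes of fatty acid synthesis that SREBP also controls, 7 lay above 0 and 5 below in log2 fold change (median 0.09), and 6 each without WT replicate 5 (median 0.02). At an unadjusted p under 0.05 stood 0 with all libraries, against 5.55% of all genes. Without WT replicate 5 there were 2, both lower, against 4.05% of all genes as lower. *Scd1*, a stearoyl-CoA desaturase, had 45.1 ± 7.40 and 54.3 ± 6.17 TPM (log2 fold change 0.28, 95% interval -0.02 to 0.58). The elongase *Elovl6* had 0.56 (95% interval -0.13 to 1.25) and the acetyl-CoA synthetase *Acss2* -0.33 (95% interval -0.75 to 0.09, and -0.47 without WT replicate 5). Of 29 other sterol and isoprenoid genes, 28 were tested, 14 above 0 and 14 below (median 0.02), and 9 above and 19 below without WT replicate 5 (median -0.11). The 1 at an unadjusted p under 0.05, against 5.55% of all genes, was *Lcat*, which esterifies cholesterol on lipoproteins. It was at 101 ± 10.04 and 84.5 ± 13.0 TPM (log2 fold change -0.27, adjusted limma p = 0.779, exact permutation p = 0.0714). *Mbtps2*, the protease that frees SREBP, had 3.69 ± 2.59 and 6.01 ± 1.74 TPM (0.95, 95% interval -0.08 to 1.98), and the sterol transfer gene *Gramd1a* had -0.21 (95% interval -0.43 to 0.02). None of these genes passed the adjusted threshold.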

How the data were processed

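RNA of 5 WT and 5 *Dscam* del17/del17 cerebella, 1 library per mouse, was prepared with a directional kit and sequenced on a NovaSeq instrument. The authors trimmed the reads with Trimmomatic, aligned them to GRCm38 with HISAT2 and deposited TPM values per Ensembl gene from StringTie. The annotation release and the strand setting of the quantification are not given in the sources used here. The submitters' notes also name HTSeq and DESeq2, whose read counts and results were not analysed here, so limma was applied to TPM in place of the count test of the methods. Symbols, positions and transcript sequences were taken from GENCODE M21 on GRCm38, and promoters from RefSeq on GRCm38.p6.

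A filter kept the 17168 of 53447 genes that reached 0.5 TPM in 5 or more of the 10 libraries. After adding 0.1 TPM, log2 values were fitted by genotype alone in limma (version 3.58.1, R version 4.3.3), using empirical Bayes moderation with a variance trend. Benjamini-Hochberg adjustment covered every gene tested, 0.05 was the threshold, and 95% intervals come from that model. The added value draws low genes toward 0. For single genes, an exact permutation test (two-sided, difference of mean log2 values) was added, whose smallest p is 0.0079. P-values measure the spread between mice. The methods state that controls were littermates, so mice of both genotypes may share litters, which the fit does not model because no source assigns a library to a litter. Replicate numbers are shared by the genotypes, but no source says that they pair mice. The fit was also run on simulated data with independent normal errors for each gene. These held no library that deviates across many genes, as WT replicate 5 does, so that run does not cover this case.

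The members and lists were chosen with earlier results of these data known. Full values were given, within each role, to the members with the 2 smallest p-values and the 2 highest means and to any whose groups do not overlap, and 3 genes with the smallest p-values were named in each of 2 further lists. Exons of *Tm7sf2* overlap *Vps51* on the same strand (12.1% of exon bases), those of *Fdps* overlap *Gm43738* (26.7%), and those of *Fdft1* overlap *Ctsb* on the opposite strand (18.3%). Alternatives were other added values, filters, scalings, gene sets, weights, variance models, *Xist* as a covariate, a replicate block, each library left out in turn and, added after seeing the data, a correction for transcript GC content.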

Additional observations from a re-analysis of the deposited data

Results flagged for a closer look

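A value far from the other 4 of its genotype, by the gap to its nearest neighbour over the whole range, was found in 9 of 64 groups of 5 libraries, where chance flags about 1 in 20, or 3.2 groups. WT replicate 5 accounted for 7 of the 9, each a low value of an enzyme. In it *Acat2* was at 11.6 TPM, *Hmgcs1* at 36.3 TPM, *Pmvk* at 35.8 TPM, *Idi1* at 2.34 TPM, *Sqle* at 12.3 TPM, *Cyp51* at 7.50 TPM and *Nsdhl* at 6.92 TPM. These 7 values come from 1 library and are not independent of each other. In mutant replicate 5, *Ebp* was high at 46.2 TPM and *Npc1* low at 11.2 TPM.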

How the results depend on the processing

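No member passed the adjusted threshold under any of 24 alternatives (22 planned and 2 added after seeing the data), the lowest adjusted p of a member being 0.444 by limma. Over all genes, where 0 passed as reported, 4 passed without a variance trend and 0 to 1 when 1 library was left out, the 1 without mutant replicate 4. The median log2 fold change ranged from -0.15 to 0.04 for the members and from -0.17 to 0.09 for the enzymes when 1 library was left out. No alternative shifted these medians by more than the SD between mice of a genotype, pooled over both genotypes (0.245 and 0.355). That SD is of the mean log2 value of each library, not of the median fold change, so it serves only as a scale. Without WT replicate 5 the SD is 0.0907 and 0.0992, and the shifts made by leaving it out, 0.0995 and 0.166, exceed it. At an unadjusted p under 0.05 stood 2 members as reported, 4 without WT replicate 2, 3 without WT replicate 5 and 1 with the GC correction, against 5.55%, 9.52%, 5.74% and 6.53% of all genes. With array weights, 3 enzymes were above 0 and 15 below. Of 768 single values, 57 changed sign, and 12 members never did, *Dhcr7* (-1.14 to -0.77) and *Mvd* (-0.31 to -0.15) among them. The cause of the sign changes was not tested. With quantile normalization, *Acat2* was at -0.037, *Sqle* at -0.009 and *Sc5d* at -0.017. With array weights, *Acat2* was at -0.16, *Sqle* at -0.25, *Cyp51* at -0.20, *Msmo1* at -0.27, *Nsdhl* at -0.090, *Sc5d* at -0.15 and *Stard4* at -0.079. With the GC correction, *Hmgcs1* was at -0.037, *Pmvk* at 0.032, *Sqle* at -0.029, *Msmo1* at -0.078, *Nsdhl* at -0.050, *Sc5d* at -0.20, *Srebf1* at 0.006, *Scap* at 0.042, *Stard4* at -0.11 and *Cyp46a1* at 0.068. With that correction and without WT replicate 5, *Acat2* was at -0.12, *Hmgcs1* at -0.10, *Idi1* at -0.029, *Sqle* at -0.28, *Cyp51* at -0.29, *Msmo1* at -0.35, *Nsdhl* at -0.17, *Hsd17b7* at -0.085, *Sc5d* at -0.23, *Srebf1* at 0.019, *Scap* at 0.050, *Stard4* at -0.20, *Apoe* at 0.008, *Npc1* at -0.040 and *Cyp46a1* at 0.059. Leaving out 1 library at a time changed 22 signs, 11 of them without WT replicate 5. The ranges were -0.17 to 0.14 for *Acat2*, -0.030 to 0.32 for *Hmgcs1*, -0.20 to 0.023 for *Pmvk*, -0.32 to 0.027 for *Fdps*, -0.16 to 0.035 for *Fdft1*, -0.31 to 0.20 for *Sqle*, -0.11 to 0.062 for *Lss*, -0.27 to 0.33 for *Cyp51*, -0.31 to 0.35 for *Msmo1*, -0.15 to 0.26 for *Nsdhl*, -0.030 to 0.47 for *Hsd17b7*, -0.16 to 0.23 for *Sc5d*, -0.15 to 0.29 for *Stard4*, -0.019 to 0.37 for *Npc1*, -0.009 to 0.17 for *Npc2* and -0.14 to 0.034 for *Cyp46a1*. The numbers were not taken to pair mice, because no source says that they do. The deviations of same-numbered libraries correlated at 0.0079 to 0.0978. No other pairs were computed beside them, so these values cannot tell whether mice share litters. The fit with the replicate block called 0 members, with 2 at an unadjusted p under 0.05, against 6.37% of all genes. TPM holds no read number, so depth as a limit on these values could not be weighed.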
